A study of Homo sapiens with 12 samples.

Results

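The 9 genes described here are core regulators of ferroptosis, chosen by symbol: GPX4, SLC7A11, SLC3A2, ACSL4, LPCAT3, AIFM2, DHODH, GCH1 and CISD1. They are 9 of the 27249 genes listed with an Ensembl identifier, each has a row in all 12 tables, and all 9 passed the filter on low values in both cell lines. RNA was sequenced from Huh7 and HepG2, both established human liver cancer cell lines, in sorafenib-resistant and parental form, with 3 samples in each of the 4 groups. Sorafenib is a multikinase inhibitor used against hepatocellular carcinoma. The resistant cells had come from repeated rounds of drug exposure and recovery over 8 months, beginning at 10 μmol with rising concentrations afterwards, and the parental cells of the same line served as controls. The labels give the genotype of all 4 groups as WT. Each resistant line is a surviving population of 1 parental line, and the labels do not say whether the 3 samples of a group were separate cultures, so the p-values measure only the spread between these samples.

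Ferroptosis is a form of cell death driven by iron-dependent peroxidation of polyunsaturated phospholipids in membranes. Cells restrain it by importing cystine to make glutathione, which the peroxidase GPX4 spends on reducing lipid peroxides, and by parallel systems that regenerate lipid-soluble radical traps. Enzymes that load polyunsaturated fatty acids into phospholipids act in the opposite direction, since they supply the substrate. Sorafenib has been studied as an agent that can trigger this death in liver cancer cells.

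Values are FPKM, reads scaled by exon length and by the depth of the sample. Levels of different genes can be compared only roughly. How reads were counted is not known, and base composition differed between libraries, as given below. The reads behind a sample numbered 12290128 to 19285958, and the reads behind a single value of the 9 genes ran from 118 for CISD1 to 16263 for ACSL4. Replicate samples correlated at 0.964 to 0.986 within a group. All 6 hepatocyte markers, among them ALB and HNF4A, were at 1 FPKM or more in 12 of 12 samples. Of 8 markers of other liver cell types, the endothelial PECAM1 was at 1.12 to 3.61 FPKM in every sample and the leukocyte gene PTPRC at 0.747 to 1.51 FPKM, whereas the other 6 were below 1 FPKM throughout. In bulk RNA, fewer cells of a kind and less RNA per cell cannot be told apart. Changes below are differences of log2(FPKM + 1), resistant minus parental, each with its standard error from limma, and a gene passed the test at a Benjamini-Hochberg adjusted p under 0.05 over all genes tested.

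The libraries also differed in base composition. The mean GC content of the reads was 48.3% to 49.3% in resistant Huh7 and 45.5% to 46.9% in parental Huh7, with no overlap, and 46.9% to 48.7% in resistant against 47.2% to 48.3% in parental HepG2. Across 12545 genes, genes of higher GC content had larger log2 differences in Huh7 (Spearman's rho 0.617), against a rho of 0.0389 across 11756 genes in HepG2. These points are genes of the same libraries and not independent replicates. Each Huh7 log2 difference of a regulator is therefore followed by its counterpart with every library's GC trend taken out. The part that base composition had in the differences was not tested otherwise.

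**Figure D1:**
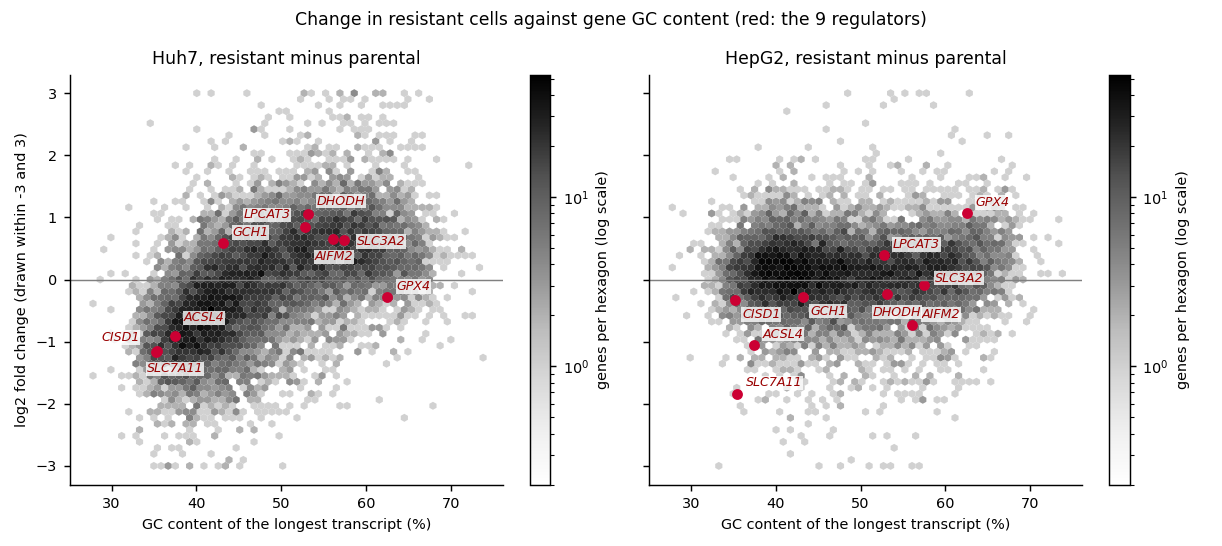
The log2 difference of each gene (resistant minus parental, y axis) is plotted against the GC content of its longest transcript (x axis, %) for Huh7 and HepG2, with grey hexagons for the number of genes and red points for the 9 regulators. In Huh7 the 3 regulators with the lowest GC content, CISD1, SLC7A11 and ACSL4 at 35.2% to 37.4%, lie lowest along a rising cloud, while the cloud of HepG2 is flat and SLC7A11 lies at its lower edge.

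In Huh7, 8 of the 9 regulators passed the test, 5 higher and 3 lower in resistant cells, where 70.1% of all 12554 genes tested passed. SLC7A11, ACSL4 and CISD1 fell, while SLC3A2, LPCAT3, AIFM2, DHODH and GCH1 rose. After removal of the GC trend 4 passed, LPCAT3, DHODH and GCH1 higher and GPX4 lower, beside 64.5% of all genes (32.5% higher and 31.9% lower). A log2 change beyond 1 was reached by 3 of the 8, SLC7A11, CISD1 and DHODH, and by 22.6% of all genes. The samples of the resistant and parental Huh7 groups did not overlap for these 8 genes, as for 74.5% of all genes. In HepG2, 4 of 9 passed, with GPX4 higher and SLC7A11, ACSL4 and AIFM2 lower, beside 20.0% of all 11762 genes. Of all genes in HepG2, 11.6% passed as higher and 8.43% as lower. With median-ratio scaling that split turned to 992 higher and 1286 lower genes, and 3 regulators passed, without GPX4. With the GC trend removed 7 regulators passed, LPCAT3, GCH1 and CISD1 in addition, beside 33.4% of all genes (15.8% higher and 17.6% lower). A log2 change beyond 1 was reached by 3 of the 4, GPX4, SLC7A11 and ACSL4, and by 6.27% of all genes. The median log2 difference over the 9 genes was 0.58 in Huh7 and -0.27 in HepG2, beside -0.04 and 0.12 over all genes tested.

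Between the lines, the changes of 7 of the 9 regulators differed by the test of the interaction of cell line and resistance, beside 56.3% of 13800 genes, and of 6 with the GC trend removed, beside 55.7%. The difference was beyond 1 for GPX4, AIFM2 and DHODH, and for 28.8% of all genes. This test uses the same samples as the comparisons within each line, and its median over all genes was -0.15, or -0.03 with median-ratio scaling. SLC7A11 and ACSL4 were lower in both resistant lines, as were 2.36% of the 10688 genes tested in both. AIFM2 passed in opposite directions, as did 7.52% of those genes. With the GC trend removed, SLC7A11, ACSL4 and AIFM2 did not pass in Huh7, at -0.21, -0.07 and 0.15. No regulator passed as higher in both lines by limma or limma-voom, against 3.49% of the genes, but LPCAT3 was higher in both at an unadjusted p under 0.05 and passed in both with the GC trend removed.

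**Figure D2:**
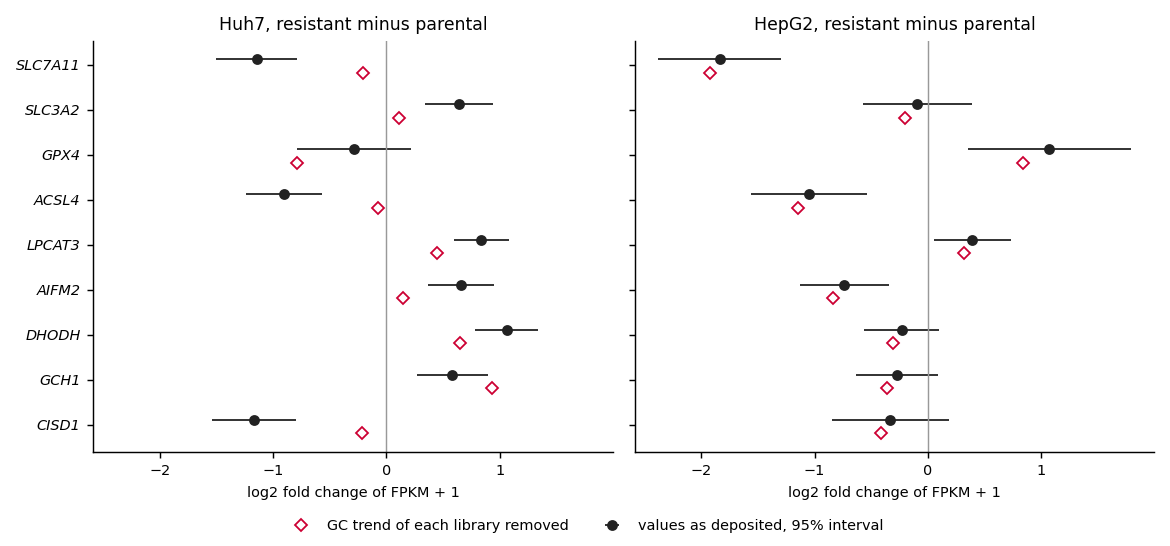
Points show the log2 fold change of FPKM + 1 (x axis, resistant minus parental) of each regulator (y axis) in Huh7 and HepG2, with the 95% interval from limma as a bar, and open diamonds show the value after removal of each library's GC trend. SLC7A11 lies below 0 in both lines, at -1.15 and -1.84, and in Huh7 its diamond lies at -0.21.

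SLC7A11 encodes xCT, the light chain that exchanges intracellular glutamate for extracellular cystine. The gene lies at chr4:138164097-138242349 on the minus strand of GRCh38, with 9645 bases of exon and a GC content of 35.4%, of which 865 exon bases are shared with an antisense gene. In HepG2 its level was 23.2, 14.2 and 13.4 FPKM in the 3 resistant samples and 53.9, 54.5 and 78.2 FPKM in the parental ones. Every resistant sample was below every parental sample, and the difference was -1.84 ± 0.24 (SE, adjusted p = 0.00193). It passed in 6 of 6 fits that left out a sample and with the GC trend removed, at -1.92.

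In Huh7, SLC7A11 was at 10.7, 10.2 and 8.10 FPKM in resistant and 18.2, 24.4 and 25.6 FPKM in parental samples, again without overlap. Here it fell by 1.15 on the log2 scale (SE 0.16, adjusted p = 0.000295), and the value was -0.21 with an adjusted p of 0.056 once the GC trend was removed. SLC7A11 thus ranked from HepG2 parental at 62.2 ± 13.8 FPKM (SD, n = 3) through Huh7 parental at 22.7 ± 3.94 and HepG2 resistant at 16.9 ± 5.44 to Huh7 resistant at 9.67 ± 1.38 FPKM. The samples of the middle groups overlapped, and the others stood apart. The changes in the lines differed by 0.69 with an adjusted p of 0.0777, which became 1.68 with an adjusted p of 3.64e-05 after removal of the GC trend. Parental Huh7 was below parental HepG2 by a log2 difference of -1.41 ± 0.19 (SE, adjusted p = 0.000337).

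SLC3A2 encodes 4F2hc (CD98), the heavy chain that carries SLC7A11 and several other light chains to the plasma membrane. It lies at chr11:62856102-62888875 on the plus strand. Its level was 66.0, 58.4 and 72.8 FPKM in resistant and 47.5, 41.4 and 36.6 FPKM in parental Huh7. All 3 resistant samples were above the parental ones, and SLC3A2 rose by 0.64 ± 0.13 (SE, adjusted p = 0.00259), with 0.11 and an adjusted p of 0.187 after removal of the GC trend. In HepG2 the samples overlapped, at 45.1, 68.8 and 60.6 FPKM in resistant and 47.8, 67.9 and 70.6 FPKM in parental cells. The difference there was -0.09, with a 95% interval of -0.58 to 0.39 and an adjusted p of 0.781, and it turned to 0.08 without resistant replicate 1. Relative to its heavy chain, SLC7A11 stood at 0.149 ± 0.0336 FPKM per FPKM of SLC3A2 in resistant and 0.557 ± 0.159 in parental Huh7 (SD, n = 3). In HepG2 this ratio was 0.314 ± 0.174 in resistant and 1.01 ± 0.182 in parental samples. The ratio was not computed with the GC trend removed, and the GC content is 35.4% for SLC7A11 and 57.4% for SLC3A2.

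GPX4 is the selenoenzyme that reduces phospholipid hydroperoxides with glutathione. It lies at chr19:1103926-1106791 on the plus strand and has a GC content of 62.5%, the highest of the 9. Its catalytic selenocysteine is encoded by a UGA codon, codon 73 of transcript GPX4-201 in GENCODE release 29 at chr19:1105403-1105405, and the coding sequence around it is shown because the codon is what sets this peroxidase apart from cysteine-based enzymes; capitals mark the codon, written as DNA.
GPX4 codon 73: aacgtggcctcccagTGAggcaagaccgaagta
In HepG2, GPX4 was at 32.8, 84.4 and 69.5 FPKM in resistant and 25.2, 25.2 and 30.9 FPKM in parental samples. The groups did not overlap, but resistant replicate 1 was close to the parental range while the other two were far above it. GPX4 rose by 1.07 ± 0.31 (SE, adjusted p = 0.0457). Without resistant replicate 1 the difference was 1.47 with an adjusted p of 0.00179, and in each of the other 5 fits that left out a sample it did not pass, with adjusted p up to 0.132. The call was also lost with another pseudocount, with no filter and with either rescaling. Resistant replicate 1 was the library of lowest GC content in its group, at 46.9% against 48.7% and 48.1%, and the value with the GC trend removed was 0.84 with an adjusted p of 0.022.

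In Huh7, GPX4 was at 35.0, 30.3 and 53.5 FPKM in resistant and 57.8, 47.0 and 38.5 FPKM in parental samples, and the groups overlapped. The difference was -0.29 ± 0.22 (SE, adjusted p = 0.272), with -0.52 and an adjusted p of 0.0335 without resistant replicate 3, and -0.79 with an adjusted p of 0.00303 after removal of the GC trend. The change in Huh7 differed from that in HepG2 by -1.36 ± 0.44 (SE, adjusted p = 0.0217), passing in 9 of 12 fits that left out a sample. The adjusted p was 0.0523 without Huh7 resistant replicate 2, 0.0501 without Huh7 parental replicate 1 and 0.0512 without HepG2 resistant replicate 3. Parental Huh7 had more GPX4 RNA than parental HepG2, by 0.78 ± 0.17 (SE, adjusted p = 0.00442).

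**Figure D3:**
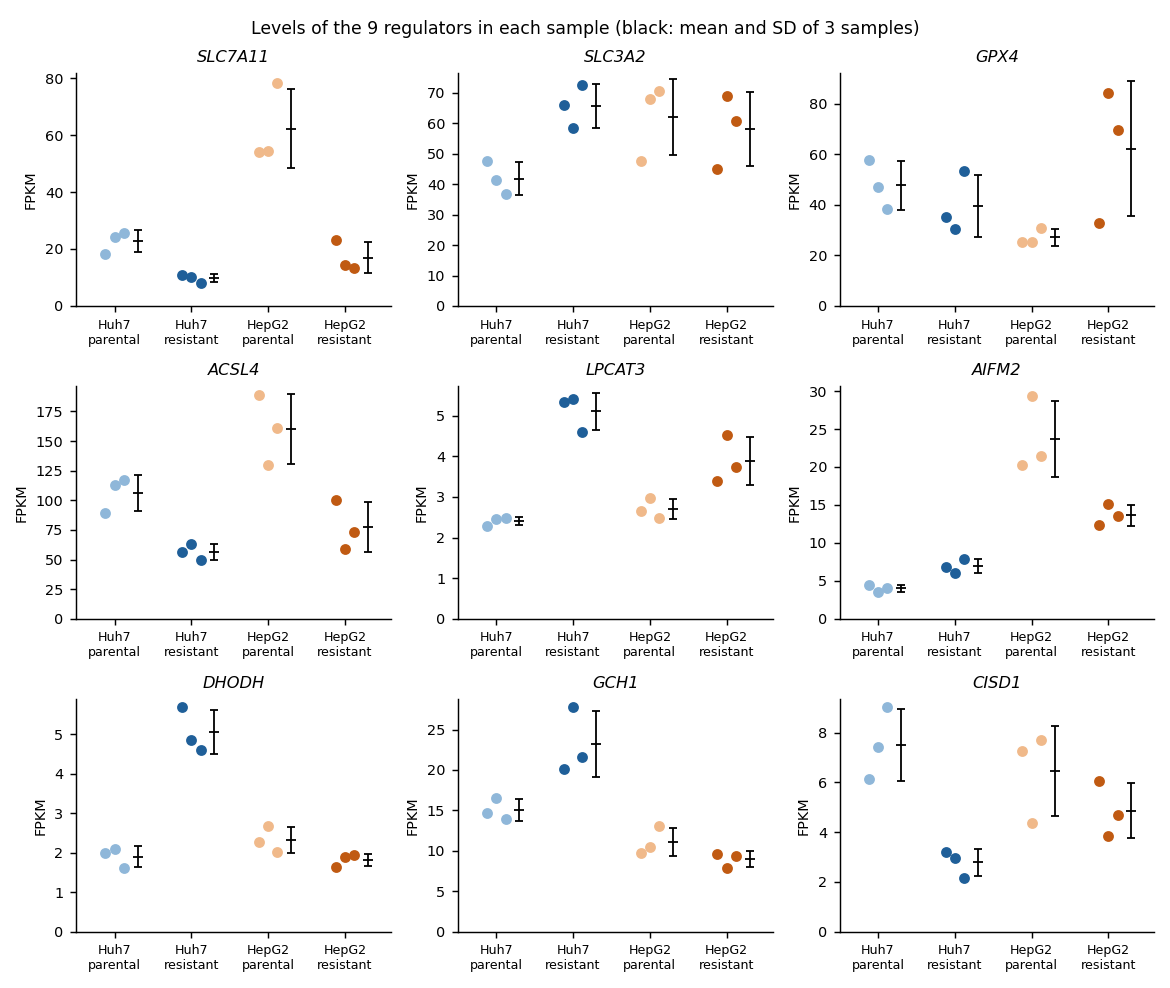
Each panel gives the FPKM (y axis, from 0) of a regulator in the 3 samples of each group (x axis), with the mean and SD in black. SLC7A11 and ACSL4 are lower in the resistant samples of both lines, and GPX4 in resistant HepG2 has 1 sample at 32.8 FPKM and the other two at 69.5 and 84.4 FPKM.

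ACSL4 activates arachidonic and adrenic acid and so primes the polyunsaturated phospholipids that are peroxidised. It lies at chrX:109624244-109733403 on the minus strand, with a GC content of 37.4%. It had the highest mean of the 9 genes in 3 of the 4 groups. In HepG2 it was at 101, 59.3 and 73.0 FPKM in resistant and 189, 130 and 161 FPKM in parental samples, without overlap, and it fell by 1.05 (SE 0.22, adjusted p = 0.0148). The call was kept in 4 of 6 fits that left out a sample, and lost without resistant replicate 3 (adjusted p = 0.0553) and without parental replicate 1 (adjusted p = 0.0569). In Huh7 it was at 56.1, 63.5 and 49.3 FPKM in resistant and 89.1, 113 and 117 FPKM in parental samples, also without overlap, with a log2 difference of -0.90 ± 0.15 (SE, adjusted p = 0.000682). After removal of the GC trend the Huh7 value was -0.07 with an adjusted p of 0.402, whereas the HepG2 value was -1.15. The changes in the lines differed by 0.15 with an adjusted p of 0.686, which became 1.05 with an adjusted p of 0.000266 after removal of the GC trend. ACSL4 is among the genes that the study selected for its resistance signature on these samples together with a xenograft model, so its direction is not independent evidence.

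LPCAT3 inserts the activated polyunsaturated acyl chains into lysophospholipids. It lies at chr12:6976186-7018510 on the minus strand, and 3100 of its exon bases, 65.6%, are shared with EMG1 on the opposite strand. The strand setting of library and counting is not given in the sources used here, so its values are uncertain. EMG1 itself was listed at no more than 0.979 FPKM, which does not lessen this doubt, since how reads in the shared bases were assigned is not known. LPCAT3 was at 5.33, 5.41 and 4.59 FPKM in resistant and 2.29, 2.46 and 2.48 FPKM in parental Huh7, and it rose by 0.84 ± 0.11 (SE, adjusted p = 0.00022), with 0.45 and an adjusted p of 0.00878 after removal of the GC trend. HepG2 samples were at 3.39, 4.53 and 3.74 FPKM in resistant and 2.66, 2.98 and 2.49 FPKM in parental cells. These groups did not overlap either, as in 40.4% of all genes, but the difference of 0.39 had an adjusted p of 0.0964. ACSL4 stood at 11.0 ± 0.643 FPKM per FPKM of LPCAT3 in resistant and 44.1 ± 4.49 in parental Huh7, and at 20.8 ± 8.38 in resistant and 59.7 ± 14.4 in parental HepG2 (SD, n = 3). This ratio was likewise not computed with the GC trend removed, and the GC content is 37.4% for ACSL4 and 52.8% for LPCAT3.

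Of the 3 suppressors that act beside GPX4, all passed as higher in Huh7, as did 32.7% of all genes. DHODH and GCH1 did so also with the GC trend removed, as did 32.5% of all genes. In HepG2 AIFM2 fell, beside 8.43% of all genes that passed as lower, while DHODH and GCH1 did not pass. AIFM2 encodes FSP1, which reduces coenzyme Q at the membrane, and lies at chr10:70098223-70132934 on the minus strand. Its level in Huh7 was 6.83, 6.05 and 7.89 FPKM in resistant and 4.40, 3.53 and 4.11 FPKM in parental samples. It rose by 0.66 ± 0.13 (SE, adjusted p = 0.00179), with 0.15 and an adjusted p of 0.224 after removal of the GC trend. In HepG2 it was at 12.3, 15.1 and 13.6 FPKM in resistant and 20.2, 29.4 and 21.5 FPKM in parental samples, a fall of 0.74 on the log2 scale (SE 0.17, adjusted p = 0.021), which did not pass without resistant replicate 3 (adjusted p = 0.0836). The changes differed by 1.39 ± 0.21 (SE, adjusted p = 0.000264), or 1.05 with the GC trend removed. All 4 groups stood apart from each other, and parental Huh7 was below parental HepG2 by -2.29 ± 0.17 (SE, adjusted p = 9.22e-06), or -2.10 after removal of the GC trend.

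DHODH, the pyrimidine synthesis enzyme of the inner mitochondrial membrane, reduces coenzyme Q there. It lies at chr16:72008588-72027664 on the plus strand. It was at 5.69, 4.86 and 4.61 FPKM in resistant and 2.00, 2.09 and 1.61 FPKM in parental Huh7, and at 1.65, 1.89 and 1.93 FPKM in resistant and 2.27, 2.68 and 2.02 FPKM in parental HepG2. Resistant Huh7 stood above every other group, and the other 3 groups lay between 1.61 and 2.68 FPKM. DHODH rose in Huh7 by 1.06 ± 0.12 (SE, adjusted p = 0.000138) and kept its call after removal of the GC trend at 0.65. In HepG2 the difference was -0.23 with an adjusted p of 0.281, and the difference between the lines was 1.29 ± 0.16 (SE, adjusted p = 8.89e-05).

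GCH1 makes the first committed step toward tetrahydrobiopterin, a radical trap. It lies at chr14:54842008-54902852 on the minus strand. Its level was 20.1, 27.8 and 21.6 FPKM in resistant and 14.6, 16.5 and 14.0 FPKM in parental Huh7, and it rose by 0.58 ± 0.14 (SE, adjusted p = 0.00513). GCH1 was the only regulator that passed in Huh7 and had a larger difference after removal of the GC trend, at 0.93 with an adjusted p of 0.000198. In HepG2 it was at 9.64, 7.84 and 9.41 FPKM in resistant and 9.73, 10.5 and 13.0 FPKM in parental samples, a difference of -0.27 that did not pass (adjusted p = 0.244), or -0.36 with an adjusted p of 0.0366 after removal of the GC trend. The changes differed by 0.86 ± 0.20 (SE, adjusted p = 0.00419).

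CISD1, or mitoNEET, is an iron-sulfur protein of the outer mitochondrial membrane that limits mitochondrial iron uptake. It lies at chr10:58269058-58289586 on the plus strand and has the lowest GC content of the 9, at 35.2%. In Huh7 it was at 3.21, 2.98 and 2.17 FPKM in resistant and 6.12, 7.42 and 9.01 FPKM in parental samples, without overlap. It fell by 1.17 on the log2 scale (SE 0.16, adjusted p = 0.000326), which became -0.22 with an adjusted p of 0.0569 after removal of the GC trend. HepG2 samples were at 6.06, 3.85 and 4.70 FPKM in resistant and 7.28, 4.39 and 7.70 FPKM in parental samples, which overlapped, and the difference was -0.33 with an adjusted p of 0.321. The changes in the lines differed by -0.84 with an adjusted p of 0.0324, but by 0.17 in the opposite direction after removal of the GC trend.

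In the untreated lines, 6 of the 9 regulators differed between Huh7 and HepG2, beside 65.2% of 12796 genes tested. GPX4 and GCH1 were higher in Huh7, and SLC7A11, SLC3A2, ACSL4 and AIFM2 were higher in HepG2. Of all genes, 39.0% passed as higher in Huh7 and 26.2% as higher in HepG2, and with the GC trend removed the numbers were 4291 and 4329. With a log2 difference beyond 1 also required, 2 regulators, SLC7A11 and AIFM2, remained beside 31.9% of all genes. The ACSL4 difference was -0.58 ± 0.19 (SE, adjusted p = 0.0249), that of SLC3A2 -0.55 ± 0.18 (SE, adjusted p = 0.0294) and that of GCH1 0.42 ± 0.15 (SE, adjusted p = 0.0351). With the GC trend removed the ACSL4 difference was -1.24 (adjusted p = 9.2e-05) and that of SLC7A11 -2.14. SLC3A2 and GCH1 did not pass after removal of the GC trend, when CISD1 did at -0.53, so that 5 regulators passed beside 67.4% of all genes. When a sample was left out, ACSL4 passed in 3 of 6 fits, SLC3A2 in 2 of 6 and GCH1 in 1 of 6. The parental samples are the same ones that served as controls within each line.

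The start-site sequences of the regulators were searched for the antioxidant response element core TGACNNNGC, bound by NRF2, on both strands of the RefSeq windows of GRCh38.p14, which reach 250 bases before and 50 bases after the start. Windows were matched for 7 of the 9 genes, 11 windows in all. None was matched for SLC7A11 and GCH1, which were therefore not searched. The core was in those of AIFM2 and in 1 of the 3 windows of SLC3A2, and 13.3% of all 35116 windows hold it. Both matches read TGACTCAGC, and the 250 bases before each start are shown, since these are the searched regulators that carry a match. Capitals mark it, which in AIFM2 is on the reverse strand. The AIFM2 sequence is chr10:70132826-70133075, minus strand, with the match at position -22 from the start, and that of SLC3A2 is chr11:62881449-62881698, plus strand, with the match at position -37.
AIFM2 upstream: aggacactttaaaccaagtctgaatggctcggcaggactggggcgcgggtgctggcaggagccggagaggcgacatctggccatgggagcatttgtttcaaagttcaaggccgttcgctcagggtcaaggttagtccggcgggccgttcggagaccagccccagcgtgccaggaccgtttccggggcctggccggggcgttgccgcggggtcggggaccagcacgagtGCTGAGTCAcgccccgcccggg
SLC3A2 upstream: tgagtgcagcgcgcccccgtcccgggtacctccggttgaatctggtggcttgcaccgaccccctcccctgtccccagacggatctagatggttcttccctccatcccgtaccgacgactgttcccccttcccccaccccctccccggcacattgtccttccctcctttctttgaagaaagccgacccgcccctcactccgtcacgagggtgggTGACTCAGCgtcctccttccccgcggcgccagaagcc
The RNA of NFE2L2, which encodes NRF2, was at 73.3 ± 2.45 FPKM in resistant and 107 ± 12.5 in parental Huh7 (SD, n = 3), a fall of 0.53 (adjusted p = 0.00372), or -0.42 after removal of the GC trend. HepG2 samples were at 70.5 ± 14.3 and 89.0 ± 22.6 FPKM, a difference of -0.32 with an adjusted p of 0.344. The windows were also searched for the ATF4 C/EBP response element core TGATGNAA. Its only match was in the SLC3A2 window shown in part above, on the reverse strand at position 38 after the start. Of all windows, 3.62% hold it. GC, CCAAT and TATA boxes were searched for too and are not reported here. A match of letters is a description, not a binding site, and binding was not measured in these samples.

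Of the genes that feed glutathione and thioredoxin, more were higher than lower in resistant Huh7, and those that passed in HepG2 were lower. Of 13 tested, 7 were higher and 2 lower in resistant Huh7, beside 32.7% and 37.4% of all genes, while 0 were higher and 6 lower in resistant HepG2, beside 11.6% and 8.43%. At an unadjusted p under 0.05 and by limma-voom, 0 were higher there as well. The list's median difference was 0.62 in Huh7 and -0.48 in HepG2. With the GC trend removed, 8 were higher and 2 lower in Huh7 (32.5% and 31.9% of all genes) and 0 were higher and 11 lower in HepG2 (15.8% and 17.6% of all genes), with medians of 0.70 and -0.57. CTH, the cystathionine lyase that makes cysteine from methionine sulfur, was at 5.94, 6.73 and 5.56 FPKM in resistant and 37.3, 45.2 and 45.4 FPKM in parental HepG2. Its difference there was -2.62 ± 0.14 (SE, adjusted p = 6.34e-05), the largest change of the list in that line, and it rose in Huh7 by 0.67 (adjusted p = 0.0016). The changes in the lines differed by 3.30 ± 0.18 (SE, adjusted p = 3.34e-07). SLC1A5, a glutamine transporter, was the largest change in Huh7, with 28.9 ± 4.30 FPKM (SD, n = 3) in resistant and 7.74 ± 1.58 FPKM in parental samples, and fell in HepG2 by 0.85 (adjusted p = 0.0109). GSR, which regenerates glutathione, rose by 1.00 in Huh7 and fell by 0.77 in HepG2, and TXNRD1 rose by 0.74 and fell by 1.03. GCLM, the modifier subunit of glutamate-cysteine ligase, fell by 1.07 in HepG2 (adjusted p = 0.00376), while its Huh7 difference of -0.14 did not pass (adjusted p = 0.271) and turned to 0.70 after removal of the GC trend.

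The other light chains that share SLC3A2 were higher in resistant cells where they passed the test. In Huh7 3 of 5 and in HepG2 2 of 3 tested were higher in resistant cells, beside 32.7% and 11.6% of all genes, and 0 were lower by limma, by limma-voom or at an unadjusted p under 0.05. With the GC trend removed 1, SLC7A5, was lower in Huh7 at -0.40, beside 31.9% of all genes. SLC7A10, a carrier of small neutral amino acids, was the only gene of these lists besides SLC7A11 with a change beyond 1 in both lines. It rose from 9.24 ± 1.20 to 27.0 ± 3.21 FPKM in Huh7 and from 17.7 ± 4.39 to 50.3 ± 9.08 FPKM in HepG2 (SD, n = 3), by 1.45 (adjusted p = 5e-05) and 1.47 (adjusted p = 0.00325), the former at 0.92 after removal of the GC trend. SLC7A8, another neutral amino acid exchanger, rose in Huh7 by 1.87 (adjusted p = 1.35e-05) and was at most 0.0493 FPKM in any HepG2 sample.

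GPX2, an epithelial glutathione peroxidase, showed the largest change of all the lists. It was at 290, 223 and 284 FPKM in resistant and 26.8, 24.3 and 19.7 FPKM in parental Huh7, a rise of 3.44 ± 0.15 (SE, adjusted p = 4.45e-06) that was 3.03 after removal of the GC trend. In HepG2 it went the other way, with 162, 205 and 178 FPKM in resistant and 327, 373 and 329 FPKM in parental samples, a fall of 0.92 (SE 0.15, adjusted p = 0.00536), and the changes in the lines differed by 4.36 (adjusted p = 1.97e-07). All 4 tested genes of this list, which also holds GPX7 and PRDX6, rose in Huh7, beside 32.7% of all genes, and 3 of them with the GC trend removed, beside 32.5%. GPX1, another member of the family, was listed at 0 to 0.221 FPKM and was not tested. How its reads were counted is not known, so these values do not show that its RNA was absent.

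**Figure D4:**
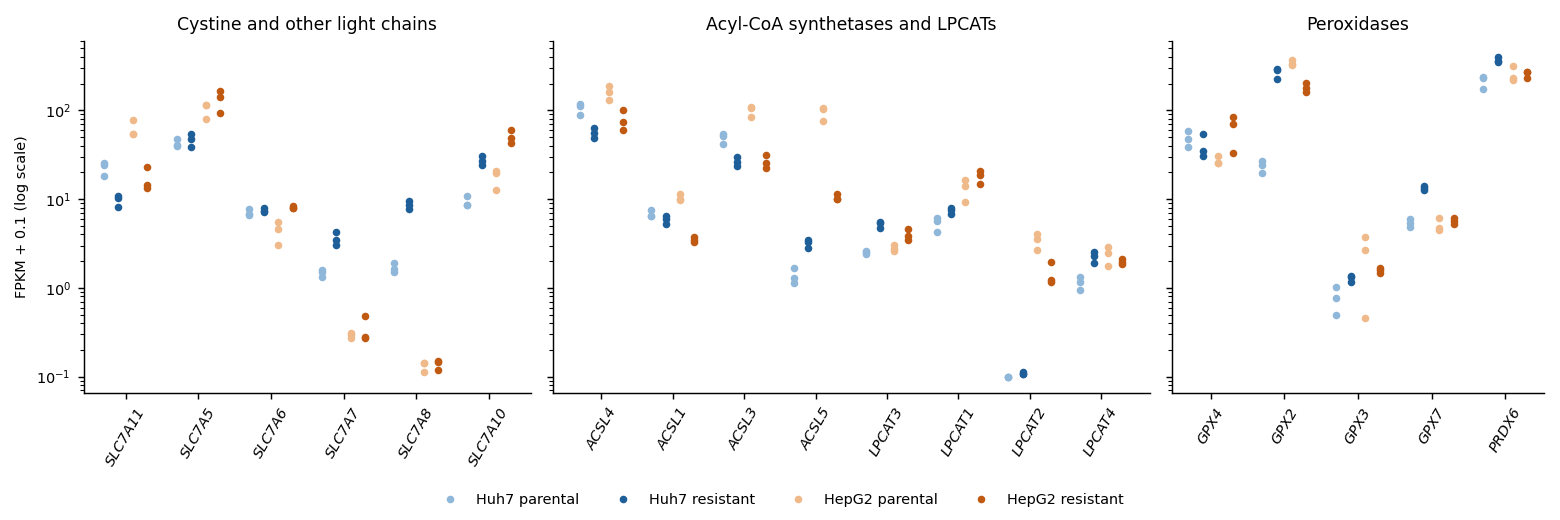
Points give the FPKM + 0.1 (y axis, log scale) of each sample for the relatives of the regulators (x axis), coloured by group. GPX2 rises from 23.6 FPKM on average in parental Huh7 to 266 FPKM in resistant Huh7, and ACSL5 falls from 95.1 to 10.3 FPKM in HepG2.

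Among the other long-chain acyl-CoA synthetases and LPCATs, 4 of 6 tested were higher and 1 lower in resistant Huh7 (32.7% and 37.4% of all genes), while 0 were higher (also 0 at an unadjusted p under 0.05 and by limma-voom) and 4 lower in resistant HepG2, beside 11.6% and 8.43% of all genes. With the GC trend removed, 1 was higher and 0 were lower in Huh7, beside 32.5% and 31.9% of all genes. ACSL5 was at 9.87, 11.3 and 9.92 FPKM in resistant and 107, 103 and 75.0 FPKM in parental HepG2, a fall of 3.07 (SE 0.17, adjusted p = 6.34e-05), larger than that of ACSL4. ACSL3, which activates monounsaturated acids, fell in HepG2 by 1.88 (adjusted p = 0.000492) and in Huh7 by 0.86 (adjusted p = 0.000649), the latter at -0.07 after removal of the GC trend. ACSL1 fell in HepG2 by 1.36 (adjusted p = 0.000735). So 4 of the acyl-CoA synthetases, ACSL4 included, were lower in resistant HepG2, and in Huh7 ACSL5 rose by 0.85 (adjusted p = 0.000536).

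The remaining lists are read against the same shares of all genes, 32.7% higher and 37.4% lower in Huh7 and 11.6% higher and 8.43% lower in HepG2. Huh7 counts with the GC trend removed are read against 32.5% higher and 31.9% lower. Of 9 tested genes of polyunsaturated lipid synthesis and peroxidation, 4 were higher and 2 lower in Huh7 and 1 in each direction in HepG2, with AGPS, an enzyme of ether lipid synthesis, lower in Huh7 by a difference of -1.15 and ELOVL5, a fatty acid elongase, lower in HepG2 by a difference of -1.05. The AGPS value was -0.30 after removal of the GC trend. Of 13 coenzyme Q synthesis genes, 3 were higher in Huh7, led by COQ8B at 0.90, and with the GC trend removed 7 were higher and 1 lower, with COQ8B at 0.39. In HepG2 1 was higher, PDSS1 at 0.75, and 1 lower. In the tetrahydrobiopterin pathway SPR, which makes the last step, rose by 0.98 in Huh7, or 0.44 after removal of the GC trend. CAD, which starts pyrimidine synthesis upstream of DHODH, rose by 0.53 in Huh7 and fell by 0.72 in HepG2, and its Huh7 value was -0.01 after removal of the GC trend.

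Of 11 iron handling genes and relatives of CISD1 tested in Huh7, 6 were higher and 2 lower, beside 32.7% and 37.4% of all genes. With the GC trend removed 6 were higher and 1 lower, beside 32.5% and 31.9%. The lower ones were led by IREB2, an iron-responsive RNA-binding protein, at -1.01, or -0.23 after removal of the GC trend. In HepG2 2 of 12 were higher, beside 11.6% of all genes. They were led by STEAP3, an endosomal ferrireductase, at 0.91, which had also risen by 1.00 in Huh7, or 0.48 after removal of the GC trend. Of the transcription factors linked to ferroptosis, 2 of 8 tested were higher and 2 lower in Huh7, beside 32.7% and 37.4% of all genes. In HepG2 1 of 9 was higher, KEAP1 at 0.94 (adjusted p = 0.0145), and 2 were lower, beside 11.6% and 8.43%. ATF4, an activator of amino acid supply genes including SLC7A11, was at 246 ± 8.33 FPKM in resistant and 387 ± 35.4 in parental HepG2 (SD, n = 3). ATF4 fell there by 0.65 (adjusted p = 0.0154). Its Huh7 difference of 0.28 had an adjusted p of 0.0671. ATF3, a stress-induced repressor, fell in HepG2 by 1.19 (adjusted p = 0.0014). FDFT1, the squalene synthase that the study counts against ferroptosis in its index, rose by 0.47 in Huh7 and by 1.44 in HepG2.

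**Figure D5:**
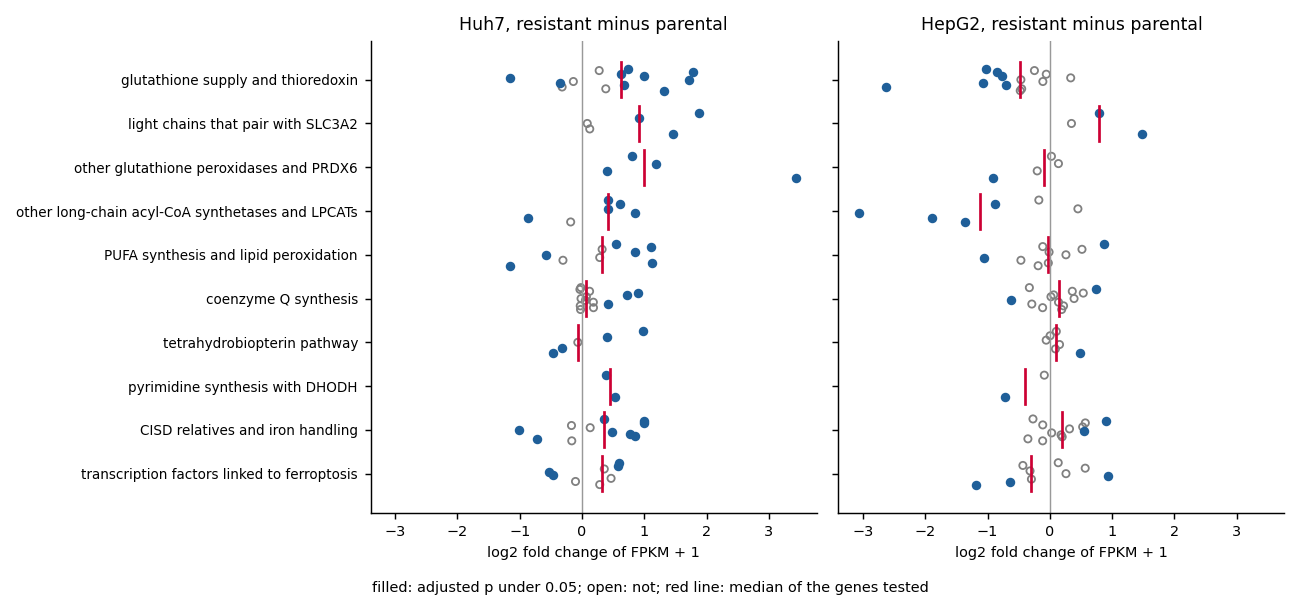
Each circle is the log2 fold change of FPKM + 1 (x axis, resistant minus parental) of a tested gene of the pathway lists (y axis) in Huh7 and HepG2, filled where the adjusted p was under 0.05, with the list median as a red line. The glutathione and thioredoxin list has its median at 0.62 in Huh7 and -0.48 in HepG2, and the light chains have theirs above 0 in both.

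The genes whose pattern over the 12 samples was most like that of a regulator were found among 13800 genes by the root mean square difference of centred log2(FPKM + 1) values, as a description. For SLC7A11 they were L3MBTL4 at 0.26, TUBE1 at 0.27 and VCAN at 0.30. For GPX4 they were CCDC106 at 0.15, MXD4 at 0.18 and CAPN15 at 0.18, and for ACSL4 they were ZBTB21 at 0.13, CPEB4 at 0.15 and HS2ST1 at 0.15. L3MBTL4, TUBE1 and CPEB4 belong, like ACSL4, to the signature the study selected on these samples together with a xenograft model.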

How the data were processed

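The authors had deposited 1 table per sample, with 98711 genes, 27249 of them under Ensembl identifiers, and no unit was named. The values were taken as FPKM made by the authors, since in 6896 single-exon genes value times exon length falls on whole multiples of 1 step per sample, and 96.3% to 96.5% of values of up to 2000 reads were within 0.05 of a whole number. RPKM and FPKM cannot be told apart here. The submitters' processing notes name bcl2fastq and GRCh38, and the aligner and counting tool are not given in the sources used here. The labels name an RNeasy kit for RNA and the methods TRIzol.

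Genes reaching 1 FPKM in 3 or more samples of a comparison were tested with limma 3.58.1 (R 4.3.3, empirical Bayes with trend, two-sided) on log2(FPKM + 1), with Benjamini-Hochberg adjustment over all genes tested. A gene passed at an adjusted p under 0.05, and a log2 change beyond 1 was counted in addition. The model was run on simulated data with independent noise, few changed genes and no GC trend. The Huh7 data differ from this, so that run does not show how the model does under a GC trend. Gene structures came from GENCODE release 29, and tables were handled with Python 3.11.15. To remove the GC trend, a lowess fit (span 0.3) against gene GC content was subtracted in each library. The regulators and the lists were chosen with earlier results of these data known. Named were the 9 regulators, the gene of each list with the largest passing change in each line, list genes with a change beyond 1 in both lines, list genes that bear on a regulator and the 3 genes most alike in pattern, except that a few list genes are not reported here. Alternatives were another pseudocount, no filter, scaling by upper quartile or by median ratio, limma-voom on back-calculated reads, limma without trend, the replicate block, all samples in 1 fit and leaving out each sample. Read numbers cover counting error only.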

Additional observations from a re-analysis of the deposited data

Results flagged for a closer look

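For 7 of the 9 regulators the change in resistant cells differed between Huh7 and HepG2 by the interaction test in limma, with 3 samples in each of the 4 groups. Of all 13800 genes tested, 56.3% passed this test. The difference of the changes (Huh7 minus HepG2, log2) was 1.39 for AIFM2, 1.29 for DHODH and 0.86 for GCH1, and these 3 passed in 12 of 12 fits that left out a sample and after removal of the GC trend. It was -1.36 for GPX4, with an adjusted p of 0.000902 after removal of the GC trend. It was 0.73 for SLC3A2 and 0.45 for LPCAT3, with adjusted p of 0.0893 and 0.245 after removal of the GC trend, and each passed in 5 of 12 fits that left out a sample. For CISD1 it was -0.84, and 0.17 after removal of the GC trend, and it passed in 6 of 12 fits that left out a sample. Groups of 3 samples were not searched for outlying samples.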

How the results depend on the processing

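In Huh7 the number of regulators passing was 8 as deposited, 3 with a log2 change beyond 1 also required, 4 with the GC trend removed and 8 to 9 when a sample was left out. Of all genes, 70.1% passed as deposited, 22.6% with a change beyond 1 and 64.5% with the GC trend removed. Without resistant replicate 3, where 9 regulators passed, 3225 of 12106 genes were higher and 4221 lower. In HepG2 the number of regulators was 4, with 1 under no filter on low values, 7 with the GC trend removed and 1 to 4 when a sample was left out (1 without resistant replicate 3 and 2 without parental replicate 1). Of all genes, 20.0% passed as deposited and 33.4% with the GC trend removed. With no filter, 857 of 24827 genes passed as higher and 765 as lower. Without resistant replicate 3, 381 of 11392 genes were higher and 459 lower. Without parental replicate 1, 664 of 11508 genes were higher and 567 lower. For the difference between lines 7 regulators passed, with 3 beyond a log2 difference of 1 and 4 to 7 when a sample was left out. Of all genes, 56.3% passed and 28.8% were beyond 1. When a sample was left out, 2662 to 3222 genes passed as higher and 3853 to 4674 as lower. Between parental lines 6 regulators passed, with 2 beyond a log2 difference of 1 and 4 when any sample was left out. Of all genes, 65.2% passed and 31.9% were beyond 1. When a sample was left out, 3074 to 4984 genes passed as higher in Huh7 and 2547 to 3129 as lower. The cause of these losses was not tested, other than that the filter decides how many genes share the adjustment and that fewer samples were fitted.

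Directions turned in these cases. When a sample was left out, SLC3A2 in HepG2 ranged from -0.27 to 0.077 (above 0 without resistant replicate 1 or parental replicate 3), PDSS1 in Huh7 from -0.082 to 0.025, SPR in HepG2 from -0.061 to 0.30, ACSL4 between lines from -0.030 to 0.35 and CISD1 between parental lines from -0.0084 to 0.34. With the GC trend removed, CISD1 was 0.17 between lines and -0.53 between parental lines, LPCAT3 was 0.012 between parental lines, ATF4, CAD, GCLM and PDSS1 in Huh7 were -0.23, -0.0071, 0.70 and 0.17, and SPR in HepG2 was -0.050. SPR in HepG2 was -0.00531 with median-ratio scaling.

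Same-numbered samples did not deviate together in every pair, so the numbers were not taken to pair the samples: the correlations were 0.07, 0.05 and -0.20 in Huh7, 0.22, 0.39 and -0.01 in HepG2 and -0.18, -0.05 and 0.17 between parental lines. With the replicate number as a block, 8, 4, 7 and 5 regulators passed in the 4 comparisons, while the genes of all that passed in HepG2 went from 1366 higher and 991 lower to 2111 and 1307. Under the block 4015 genes passed as higher and 4594 as lower in Huh7. The numbers were 2971 and 4376 for the difference between lines and 4888 and 3207 between parental lines. In HepG2 replicates 1 and 2 of the resistant cells correlated best with their own number and replicate 3 did not, a hint from the data and not from the design. Under the block, GCH1 between parental lines was lost. Every value of the 9 regulators rests on 118 reads or more, and with 3 samples in a group the estimate of the spread is itself uncertain.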
